A study of Mus musculus with 16 samples.

Results

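Lineage-negative (Lin-) c-Kit+ cells, the bone marrow (BM) fraction that holds the stem and progenitor cells of the blood, were compared between 2208L tumor-bearing mice given vehicle and non-tumor-bearing WT mice. The comparison used 4 of the 16 single-cell libraries, 2 from each group, chosen by their labels. Barcodes with 201 to 5999 detected genes and at most 10% mitochondrial unique molecular identifiers (UMIs) were kept, which left 16321 cells of the 77636 barcodes in all libraries. The question was how the presence of the tumor goes together with the makeup of the progenitors and with their RNA.

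Both groups were female BALB/c mice. The vehicle group carried 2208L, a transplantable Trp53-null mammary tumor grown in syngeneic hosts transplanted at 7 to 8 weeks of age, and received 0.5% methylcellulose by mouth for 6 or 7 days, since the series record and the account of the study differ on the number. The WT group carried no tumor and is described as untreated, with no sham surgery mentioned. The tumor, the surgery that implanted it and the dosing with vehicle therefore cannot be told apart. Each library pooled cells of 3 mice. Cells were sorted as DAPI- CD45+, negative for CD11b, Gr-1, B220, Ter119 and CD3e, and c-Kit+. The labels do not say whether the 2 libraries of a group came from separate sets of mice, so each p-value measures the spread between these libraries, which may be technical. A further 2 Lin- c-Kit+ libraries, from tumor-bearing mice given the bromodomain inhibitor IACS-70654, entered the fits to estimate the spread, and their cell numbers also set which classes were tested and how many cells were drawn at equal makeup.

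Hematopoietic stem cells (HSCs) give rise to multipotent progenitors (MPPs), which pass through granulocyte-monocyte progenitors (GMPs) toward neutrophils and monocytes, or through megakaryocyte-erythroid progenitors toward platelets and red cells. Neutrophil precursors make the proteins of their granules in order, first the azurophil proteases and myeloperoxidase, then the proteins of the secondary and tertiary granules. Tumors that secrete myeloid growth factors are known to shift BM output toward neutrophils.

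The WT libraries held 3875 and 3039 kept cells and the vehicle libraries 6571 and 2836, with 26477897 to 65785731 UMIs per library. Median UMIs per cell were 8061 and 7810 in WT against 9512 and 8671 in vehicle, and the median mitochondrial share was 2.7% in both WT libraries and 3.09% in both vehicle libraries. Shares were also taken from a clustering of cells thinned to 3000 UMIs, where the granulocyte-monocyte and megakaryocyte-erythroid lineages changed by 0.97 and -1.24 on the log2 scale and the lymphoid lineage came to be called lower (-0.48). Single classes are not compared with that clustering, since those named GMP-like and MEP-like there were led by other genes. For the gene levels, the part of the gaps in depth and mitochondrial share was not tested. No barcode was shared between libraries. The RNA matched the sort for c-Kit: summed Kit, which encodes the receptor itself, stood at 124 and 126 CPM (the UMIs of a gene scaled to a common library total) in WT and 101 and 99.6 CPM in vehicle, a difference of -0.33 on the log2 scale. Itgam, which encodes CD11b, one of the antigens sorted against, was at 4.29 and 4.70 CPM in WT and 7.48 and 8.23 CPM in vehicle. Itgam was called higher in vehicle by the test described below. Which cells its RNA came from was not tested.

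Cells were clustered over the 6 Lin- c-Kit+ libraries and a cluster was given a name ending in "-like" only where its marker score was high enough and its 10 leading genes held no more markers of another type than of its own. Other clusters kept a number or are called by their leading genes. For the shares of lineages every cluster, named or not, was counted under its highest-scoring marker list. Shares of cells were compared on the numbers of cells with the quasi-likelihood test of edgeR, p-values were adjusted by the Benjamini-Hochberg method, and the threshold was an adjusted p under 0.05. Because several of the genes that lead clusters differed between the groups, the clustering was repeated without any gene called in the comparison of all cells, and those shares are given beside the first for the classes that came up again by name.

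In tumor-bearing mice the granulocyte-monocyte lineage took the larger share of the progenitors, where in WT mice the megakaryocyte-erythroid lineage did. Granulocyte-monocyte cells made up 24.9% and 22.2% of the WT libraries and 48.2% and 45.7% of the vehicle libraries, a 1.99-fold higher share (log2 change 0.99 ± 0.07 SE, adjusted p = 2.2e-05). Megakaryocyte-erythroid cells made up 46.4% and 47.8% in WT against 20.5% and 19.1% in vehicle (log2 change -1.24 ± 0.06, adjusted p = 4.3e-06). The groups did not overlap in either lineage. Clustering without the called genes gave granulocyte-monocyte shares of 25.1% and 23.1% against 47.4% and 45.8%, and megakaryocyte-erythroid shares of 45.4% and 47% against 20.2% and 18.9%. Stem and multipotent cells showed no such gap: they took 15.5% and 16.6% in WT against 14.5% and 18.1% in vehicle (log2 change -0.01 ± 0.11, adjusted p = 0.96), so the WT libraries lay between the vehicle libraries.

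Within the myeloid side, monocyte progenitor-like cells, marked by genes such as the transcription factor Irf8 and the chemokine receptor Ccr2, held 12.6% and 12.1% of the WT cells and 20.8% and 20.2% of the vehicle cells (log2 change 0.73 ± 0.07, adjusted p = 8.9e-06), and 11.9% and 11.1% against 19.7% and 19.4% without the called genes. A cluster led by S100a9, S100a8 and Wfdc21, which are switched on in neutrophil precursors, held 4.88% and 3.92% in WT against 15.8% and 14.4% in vehicle. These leading genes themselves differed between the groups, so no test is given for its size, but a cluster led by the same 3 genes appeared when none of them was used for clustering and held 5.83% and 4.67% in WT against 16.9% and 15.7% in vehicle. A cluster led by Hdac9, Cebpe and Cers6, of which Cebpe encodes a factor of granulocyte maturation, held 3.51% and 3.16% in WT against 7.24% and 6.42% in vehicle, and its counterpart without the called genes 7.35% and 7.37% against 10.8% and 10.8%. All 3 populations held larger shares in both vehicle libraries than in either WT library, with either clustering.

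GMP-like cells, led by Elane, Mpo and Prtn3, differed less. They were 3.87% and 3.03% of WT cells and 4.28% and 4.65% of vehicle cells (log2 change 0.34 ± 0.13, adjusted p = 0.042), and this call was lost when WT replicate 2 was left out (log2 change 0.19), with TMM scaling of the cell counts (-0.02), with the replicate number as a block (0.33, adjusted p = 0.092) and with every barcode (adjusted p = 0.050). No class was named GMP-like in the clustering without the called genes.

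Eosinophil progenitor-like cells were 0.8% and 0.494% in WT against 1.98% and 1.62% in vehicle (log2 change 1.48 ± 0.23, adjusted p = 0.00031), and 0.903% and 0.526% against 1.7% and 1.27% without the called genes. They numbered 31 and 15 cells in WT and 130 and 46 in vehicle. Their median UMIs per cell were 1250 and 1541 in WT against 2487 and 2942 in vehicle. At a higher clustering resolution of 2 the class held 244 cells over the 6 libraries, against 305 here. A separate cluster of 73 cells, led by the macrophage genes C1qa, C1qb and C1qc, appeared there at a median of 670 UMIs. Whether these cells came from the eosinophil class was not tested. Basophil and mast cell progenitor-like cells were 7.38% and 7.24% in WT against 10.2% and 9.94% in vehicle (log2 change 0.46 ± 0.08, adjusted p = 0.00061), and 6.94% and 6.55% against 10% and 9.8% without the called genes. The eosinophil share and the joint basophil and mast cell share were larger in both vehicle libraries than in either WT library. The latter class joins 2 clusters that did not move together. The cluster led by Prss34 and Mcpt8 held 4.49% and 4.31% in WT against 7.78% and 7.12% in vehicle. The cluster led by Gzmb, Scin and Nlgn1 held 2.89% and 2.93% in WT against 2.4% and 2.82% in vehicle, so it did not rise. With TMM scaling of the cell counts the basophil and mast cell difference was 0.10 on the log2 scale and no longer called.

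On the megakaryocyte-erythroid side every class held a smaller share in both vehicle libraries than in either WT library. A rise of one share lowers the others, and the numbers of these cells in the marrow are not known from the libraries. Megakaryocyte-erythroid progenitor-like (MEP-like) cells were 6.58% and 7.63% in WT against 2.18% and 2.26% in vehicle, a log2 change of -1.68 ± 0.12 (adjusted p = 1.3e-06), though none of the MEP markers was among the leading genes of this class. The shares were 4.26% and 5.1% against 1.58% and 1.83% when clustered without the called genes. Erythroid progenitor-like cells were 22.7% and 22.5% in WT against 12.1% and 10.9% in vehicle (log2 change -0.96 ± 0.09, adjusted p = 6.3e-06), and 20.8% and 20.5% against 11.4% and 10.3% without the called genes. The megakaryocyte progenitor-like share, 5.16% and 4.94% in WT against 3.49% and 2.86% in vehicle, had the smallest log2 change of the 3 named classes, -0.63 ± 0.13 (adjusted p = 0.0017), and the second clustering gave 5.34% and 5.2% against 3.67% and 2.86%. The cluster led by Pdzph1, Sox5 and Apoe, which scored highest for MEP markers but too low to be named, was 11.9% and 12.7% in WT against 2.74% and 3.03% in vehicle, and its counterpart without the called genes 15% and 16.3% against 3.56% and 3.95%.

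Stem and multipotent classes differed less. HSC-like cells were 3.69% and 3.88% in WT against 4.06% and 4.65% in vehicle (log2 change 0.18 ± 0.12, adjusted p = 0.17). The difference passed the threshold as a share of the named stem, myeloid and erythroid classes alone (log2 change 0.29). That denominator leaves out the unnamed clusters, among them the S100a9-led cluster and the cluster led by Pdzph1. The second clustering gave 3.05% and 3.65% against 3.41% and 3.84%. Ifitm1, which rose within these cells, is one of the 10 HSC markers used for naming. Flt3+ MPP-like cells were 6.12% and 5.59% in WT against 3.91% and 5.89% in vehicle (log2 change -0.35 ± 0.17, adjusted p = 0.083), and the groups overlapped. Without vehicle replicate 2 the log2 change was -0.59 and called, and without vehicle replicate 1 it was 0.0006. The second clustering gave 16.4% and 16.8% against 14.3% and 16.6%, for a class that also took in clusters led by Gcnt2 and by Dntt. Lymphoid-primed progenitor-like cells, with Dntt and Il7r among their markers, were 2.68% and 2.96% in WT against 1.77% and 1.87% in vehicle (log2 change -0.64 ± 0.17, adjusted p = 0.006). Without the called genes no class had this name. A cluster led by Dntt was found there, with 1091 cells over the 6 libraries, but it was named Flt3+ MPP-like. Its own share was not compared between the groups.

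Small populations of B-lineage-like and plasma cell-like cells were also present after the sort against B220. B-lineage-like cells were 0.387% and 0.263% in WT against 0.807% and 1.2% in vehicle (log2 change 1.48 ± 0.33, adjusted p = 0.0025), and plasma cell-like cells 0.774% and 0.954% in WT against 1.38% and 1.3% in vehicle (log2 change 0.67 ± 0.20, adjusted p = 0.011). The second clustering gave 0.361% and 0.263% against 0.776% and 1.2% for the former, and 0.8% and 0.987% against 1.4% and 1.3% for the latter. The plasma cell-like call was lost when WT replicate 1 (log2 change 0.51) or vehicle replicate 1 (log2 change 0.61) was left out, and with TMM scaling of the cell counts (0.30).

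**Figure D1:**
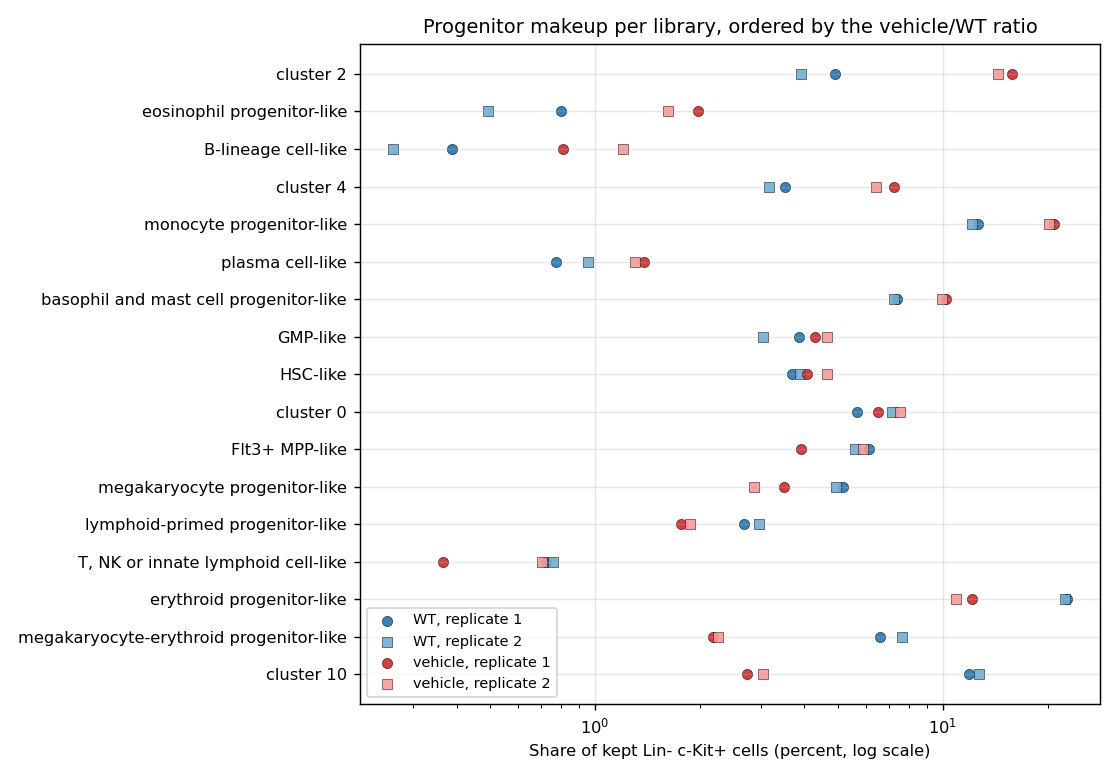
Share of kept Lin- c-Kit+ cells, in percent on a log axis, in each class or unnamed cluster, with one point for each of the 2 WT and 2 vehicle libraries. From the cluster at the top, 4.88% and 3.92% in WT against 15.8% and 14.4% in vehicle, the order runs down to the cluster at 11.9% and 12.7% in WT against 2.74% and 3.03% in vehicle, while HSC-like cells and cluster 0, a stem-side cluster led by Gcnt2, Adgrl4 and Hlf, lie close together.

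For gene levels, the UMIs of all kept cells of a library were summed for each gene, and the sums were compared by the quasi-likelihood test of edgeR with p-values adjusted over all genes by the Benjamini-Hochberg method. A gene was called where its adjusted p was under 0.01 and its log2 change was larger than 0.5. In such sums, fewer cells of a type and less RNA per cell cannot be told apart. Of 15750 genes tested, 1009 were called higher in vehicle (6.41%) and 528 lower (3.35%), 9.76% in all.

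Of the 12 genes with the largest rise, Wfdc21, a secreted whey acidic protein family member of neutrophil precursors, stood at 8.02 and 7.12 CPM in WT and 56.9 and 52.7 CPM in vehicle (log2 change 2.84 ± 0.07, adjusted p = 2.5e-15). S100a9, one chain of calprotectin, stood at 88.5 and 62.2 CPM in WT and 250 and 290 CPM in vehicle (log2 change 1.81 ± 0.10), and S100a8, the other chain, at 54.2 and 49.2 against 155 and 155 CPM (log2 change 1.56 ± 0.05). The vehicle libraries lay far above the WT libraries for all 3. Prss34, a serine protease of basophils and mast cells, went from 59.2 and 58.6 to 210 and 212 CPM (log2 change 1.82 ± 0.05), and Prg2, the eosinophil major basic protein, from 54.9 and 26.6 to 141 and 139 CPM (log2 change 1.73 ± 0.16). The other members of the 12 largest rises were Dmkn, B4galt6, Ms4a3, Hp, Nucb2, Dock9 and Pglyrp1, with log2 changes of 1.35 to 2.06.

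Among the 12 genes with the largest fall, Rhag, the Rh-associated glycoprotein, went from 45.6 and 47.7 CPM in WT to 21.4 and 17.3 CPM in vehicle (log2 change -1.23 ± 0.07), Ermap, an erythroid membrane protein, from 119 and 120 to 56.2 and 49.2 CPM (log2 change -1.18 ± 0.05), and Aqp1, the water channel, from 93.4 and 96.4 to 44.4 and 42.3 CPM (log2 change -1.14 ± 0.03). Gfi1b, a transcriptional repressor of erythroid and megakaryocytic cells, went from 41.8 and 43.8 to 19.6 and 19.5 CPM (log2 change -1.14 ± 0.04). By rule no gene models or immunoglobulin genes were listed, so that Gm47283 (log2 change -1.57) and Iglc1, a light chain constant gene (log2 change 4.52), were left out. The level of Iglc1 rested largely on one library, 11.9 and 11.8 CPM in WT and 509 and 22.5 CPM in vehicle replicates 1 and 2. Among the listed genes the fall was largest for Trib2, a pseudokinase, from 33.1 and 35.1 to 13.5 and 13.1 CPM (log2 change -1.36 ± 0.05). Pcdh7, Sphk1, Optn, Tspo2, Mfsd2b, Ces2g and Abcb4 completed the 12, with log2 changes between -1.31 and -1.13.

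**Figure D2:**
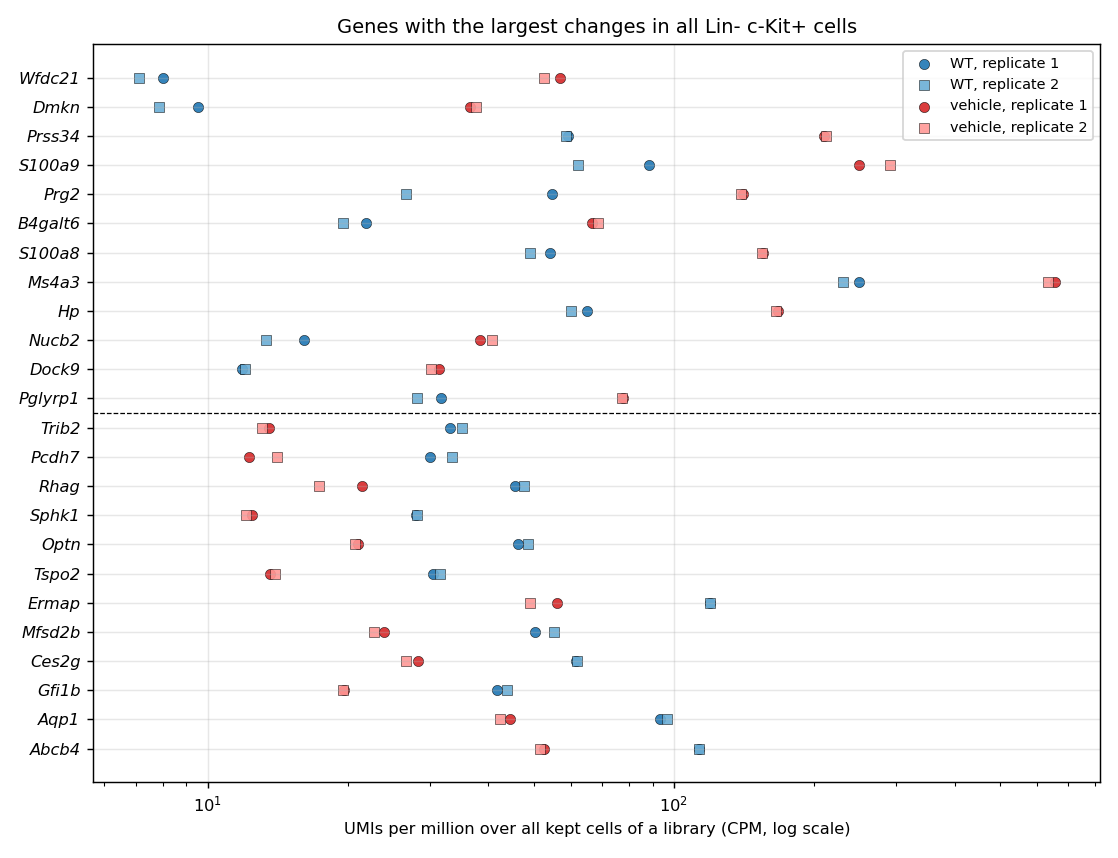
Summed UMIs in CPM (log axis) of the 12 genes with the largest rise (above the dashed line) and the 12 with the largest fall (below it) among called genes with a mean of at least 20 CPM, without gene models and immunoglobulin genes, with one point per library. The 2 vehicle points lie on one side of the 2 WT points for every gene, as the choice of genes requires, and they range from a log2 change of 2.84 for Wfdc21 to -1.36 for Trib2.

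Of the 12 genes on the azurophil granule list, which also holds the membrane protein gene Ms4a3, 11 were called higher and none lower, with a median log2 change of 0.78, against a median of about 0 (5.1e-05) over all genes tested. Their summed level was 8298 and 7820 CPM in WT and 16480 and 16190 CPM in vehicle. Prtn3, which encodes proteinase 3, went from 2049 and 1905 to 4867 and 4740 CPM (log2 change 1.26 ± 0.02), Elane, neutrophil elastase, from 1409 and 1272 to 2800 and 2770 CPM (log2 change 1.04 ± 0.03), Ctsg, cathepsin G, from 1132 and 1080 to 2434 and 2360 CPM (log2 change 1.10 ± 0.02), and Mpo, myeloperoxidase, from 1914 and 1836 to 3278 and 3267 CPM (log2 change 0.79 ± 0.02).

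Of 18 genes of early neutrophil commitment, 15 were called higher (median log2 change 1.09), among them Gfi1, from 10.8 and 9.32 to 21.0 and 21.3 CPM (log2 change 1.04), and Cebpe, from 30.1 and 26.0 to 65.5 and 60.0 CPM (log2 change 1.15). At equal makeup, described further on, 4 of 17 tested were called higher, with a median of 0.235. Of the 9 secondary and tertiary granule genes tested, 4 were called higher, with a median log2 change of 1.15 and a summed level of 87.2 and 81.1 CPM in WT against 225 and 225 CPM in vehicle, and 3 were called at equal makeup. Lcn2, lipocalin 2, was at 2.83 and 2.46 CPM in WT and 12.5 and 12.7 CPM in vehicle (log2 change 2.22 ± 0.11), and Camp, cathelicidin, at 1.12 and 1.21 against 1.12 and 1.55 CPM (log2 change 0.11, adjusted p = 0.80). For the NADPH oxidase, which makes superoxide, 4 of 6 subunits were called higher, Cybb from 11.9 and 11.3 to 25.8 and 26.6 CPM (log2 change 1.15 ± 0.06). None of the 6 was called at equal makeup, where the median was 0.12 against 0.69 in all cells.

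Of 15 monocyte genes, 12 were called higher and none lower, with a median log2 change of 0.66, and 1 was called at equal makeup, with a median of 0.07. Irf8 went from 106 and 107 to 161 and 164 CPM (log2 change 0.58 ± 0.04), Ccr2 from 19.4 and 19.5 to 42.9 and 45.4 CPM (log2 change 1.16) and Csf1r, the receptor of macrophage colony-stimulating factor, from 14.4 and 14.0 to 23.1 and 21.4 CPM (log2 change 0.64 ± 0.07). The eosinophil list had 5 of 8 higher and the basophil and mast cell list 7 of 14, with none lower in either. At equal makeup 2 of 6 eosinophil genes tested were called higher (median 0.07) and 1 of 14 basophil and mast cell genes (median -0.05), again with none lower.

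The erythroid list went the other way, with 16 of 23 genes called lower, none higher, a median log2 change of -0.93 and a summed level of 3026 and 3072 CPM in WT against 1803 and 1690 CPM in vehicle. Klf1, the erythroid Kruppel-like factor, went from 68.0 and 66.8 to 34.2 and 31.5 CPM (log2 change -1.03 ± 0.04), Gata1, the factor that directs erythroid and megakaryocytic genes, from 45.1 and 47.4 to 23.9 and 21.0 CPM (log2 change -1.03 ± 0.05), and Epor, the erythropoietin receptor, from 22 and 22 to 10.1 and 10.4 CPM (log2 change -1.12 ± 0.06). The adult globins differed from that pattern: Hbb-bs was at 47.2 and 65.1 CPM in WT and 64.7 and 49.3 CPM in vehicle (log2 change 0.05, adjusted p = 0.75), with overlapping groups. Of 9 heme synthesis enzymes, 4 were called lower and 1 higher, and none was called at equal makeup. The one called higher was Alas1, the housekeeping form of the first enzyme, from 153 and 140 to 278 and 274 CPM (log2 change 0.89 ± 0.03), a gene that also led the GMP-like cells.

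Of 17 stem cell regulators, 5 were called lower and none higher. Angpt1, a ligand of the Tie2 receptor made by stem and progenitor cells, went from 427 and 458 to 227 and 243 CPM (log2 change -0.93 ± 0.03), and Slamf1, a marker of long-term HSCs, from 16.2 and 17.8 to 7.37 and 7.59 CPM (log2 change -1.20 ± 0.09). Tek, which encodes Tie2, and Txnip were also among the 5. Of the receptors, 9 of 26 growth factor and cytokine receptors were called higher, including Csf3r, the granulocyte colony-stimulating factor (G-CSF) receptor, from 23.2 and 22.7 to 39.7 and 41.2 CPM (log2 change 0.79 ± 0.04), and 4 were called lower, including Epor. Of 24 transcription factors, 10 were higher and 3, Gata1, Klf1 and Tal1, lower. Of 48 genes of a neutrophil differentiation signature that the study took from earlier work, 19 were called higher and none lower, with a median log2 change of 0.36 and a summed level of 39940 and 39450 CPM in WT against 48910 and 48610 CPM in vehicle. At equal makeup, described next, 1 of them was called higher and the median was 0.05. Equal makeup left 2 of 17 stem cell regulators called lower (median 0.05), and 2 of 26 receptors and 1 of 24 transcription factors called higher. None of these 3 lists then had a call the other way. None of 43 S-phase genes and none of 54 G2 and M phase genes were called in either direction. Of 25 type I interferon response genes 2 were called higher and 2 lower, and none was called at equal makeup.

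To see what was left once the makeup was made alike, the same number of cells of each cluster, the lowest among the 6 libraries, was drawn from every library, 1884 cells per library, and the sums were tested again. The IACS-70654 libraries held 43 and 18 cells of the cluster led by Pdzph1, so 18 of its cells were drawn from each library, and no dendritic cell progenitor-like cells were drawn. Now 122 of 14324 genes were called higher (0.852%) and 33 lower (0.23%), 1.08% in all. Drawing equal numbers of cells without regard to class, 2836 per library, gave 941 and 492. Of the 155 genes called at equal makeup, 131 were also called in all cells, which is 84.5% of the former and 8.52% of the latter. Among the 1448 all-cell calls that could be tested again, 1297 had the same sign, and the median size of their change went from 0.78 in all cells to 0.27.

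At equal makeup none of the 12 azurophil granule genes was called (median log2 change 0.10), and the log2 change of Mpo was 0.01, that of Elane 0.08 and that of Prtn3 0.38. Prtn3 and Ms4a3 were kept out of the clustering, but Elane and Mpo were not barred from it. For genes that shape the clusters, drawing by cluster can itself level the groups. The draw was not repeated with the clusters made without the called genes. The erythroid list had no gene lower and 3 higher, the globins Hba-a1, Hbb-bs and Hbb-bt, with a median of -0.05. Klf1 changed by -0.12 and Gata1 by -0.21 on the log2 scale, neither of them called. Wfdc21 (log2 change 1.55), Lcn2 (1.52), Dmkn (1.20), B4galt6 (0.75), Dock9 (0.71) and Hp (0.61) were still called higher, as was Prg2 (0.64), and Angpt1 (-0.60), Txnip (-0.54) and Jun (-0.56) still lower. Prg2 leads the eosinophil progenitor-like class, of which only 15 cells per library could be drawn. Median UMIs per cell of that class were 1250 and 1541 in WT against 2487 and 2942 in vehicle. Equal cell numbers therefore did not make its RNA alike, and the part of this gap in Prg2 was not tested. The other 6 of the 12 largest rises were no longer called, S100a9 (0.14), Prss34 (0.32), S100a8 (0.36), Ms4a3 (0.47), Nucb2 (0.46) and Pglyrp1 (0.16). Of the 12 largest falls, Pcdh7 (-0.52) was still called and the other 11 were not, with Trib2 at -0.25 and Aqp1 at -0.19. Of 14 genes of STAT3 feedback and the G-CSF response, 6 were called higher in all cells, Socs3, Bcl3, Pim1, Cebpb, Cebpd and Il4ra, and 4 of them, Socs3, Bcl3, Pim1 and Il4ra, at equal makeup as well.

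**Figure D3:**
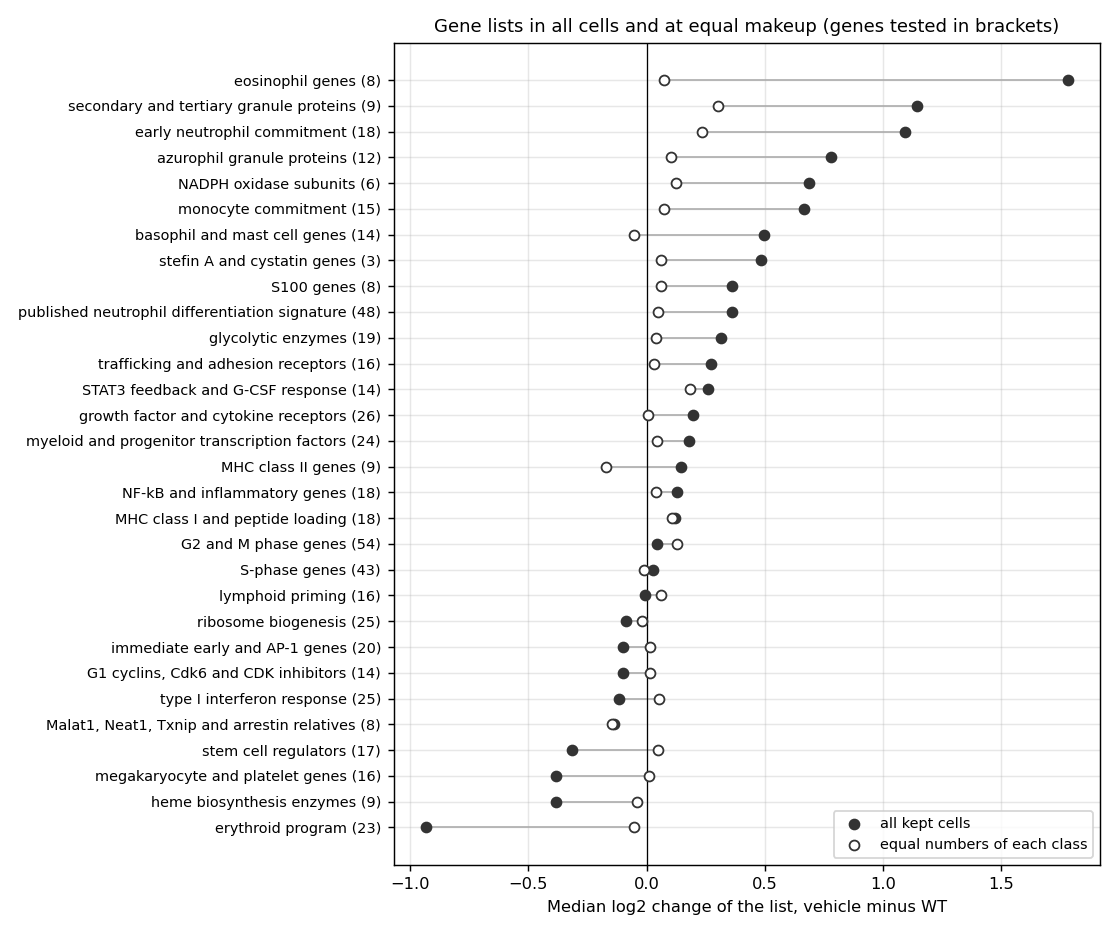
Median log2 change, vehicle minus WT, of each gene list over its tested members, for sums over all kept cells (filled) and over equal numbers of each class (open). The medians of the azurophil granule list (0.78 and 0.10) and the erythroid list (-0.93 and -0.05) lie close to 0 once the classes are equal in number.

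The sums were then tested within each of the 12 classes or clusters with at least 50 cells in every one of the 6 libraries, which left out the cluster led by Pdzph1. Calls were far fewer than in all cells, from 21 of 8448 genes in lymphoid-primed progenitor-like cells (0.249%) and 27 of 9796 in megakaryocyte progenitor-like cells (0.276%) to 153 of 11966 in monocyte progenitor-like cells (1.28%) and 129 of 9848 in basophil and mast cell progenitor-like cells (1.31%). In all, 557 genes were called in at least 1 class, 343 higher and 219 lower, with 5 called both ways in different classes. Of these, 243 were also called in all cells, which is 43.6% of the genes called in a class and 15.8% of those called in all cells. Of the 557, 414 were called in 1 class and 12 in 6 or more.

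The genes called in many classes were picked out after their values were seen. Ifitm1, an interferon-inducible transmembrane protein, was called higher in 10 of the 12. In Flt3+ MPP-like cells it was at 358 and 348 CPM in WT and 1123 and 1235 CPM in vehicle (log2 change 1.71 ± 0.06, adjusted p = 2.8e-33), in GMP-like cells at 91.0 and 70.5 against 231 and 276 CPM (log2 change 1.54 ± 0.10), and in monocyte progenitor-like cells at 110 and 104 against 299 and 311 CPM (log2 change 1.47 ± 0.05). HSC-like cells started from a higher level, 1256 and 1316 CPM in WT, and reached 2126 and 2112 CPM (log2 change 0.68). In basophil and mast cell progenitor-like cells, where the level was highest in WT, Ifitm1 was at 1872 and 2145 CPM in WT and 2070 and 2164 CPM in vehicle (log2 change 0.08, adjusted p = 0.48), and in erythroid progenitor-like cells at 91.9 and 101 against 99.7 and 96.4 CPM (log2 change 0.02, adjusted p = 0.95). Both of these classes had overlapping groups, and the other 10 did not.

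The type I interferon list is given beside Ifitm1 without a test of the difference. Of its 15 to 24 members tested in a class, at most 1 was called higher and at most 1 lower in any class, with medians from -0.28 to 0.26. Of all genes tested in a class, 0.143% to 0.852% were called higher and 0.0947% to 0.569% lower. At those shares a list of this size would hold few calls.

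Pim1, a kinase induced by STAT signaling, was called higher in 7 classes. In the cluster led by S100a9 and S100a8 it went from 38.2 and 36.5 to 90.0 and 86.6 CPM (log2 change 1.18 ± 0.14), in the cluster led by Hdac9 where 0.688% of genes were called, from 74.2 and 76.7 to 141 and 143 CPM (log2 change 0.90 ± 0.10), and in Flt3+ MPP-like cells from 176 and 172 to 256 and 253 CPM (log2 change 0.53). MEP-like cells showed no such gap, at 130 and 121 CPM in WT and 122 and 129 CPM in vehicle (log2 change -0.06). Socs3, the feedback inhibitor of STAT3, passed the low-count filter in 4 classes and was called in the stem-side cluster 0, led by Gcnt2, Adgrl4 and Hlf, from 5.81 and 1.34 to 15.6 and 17.8 CPM (log2 change 2.13). The WT levels of Socs3 were low and far apart, so the size of this change is poorly known. Over the 12 classes the STAT3 feedback and G-CSF response list, which holds Pim1 and Socs3, had 0 to 3 members called higher and none called lower. Of all genes tested in a class, 0.143% to 0.852% were called higher.

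Tex14, known from germ cell bridges, was called higher in 8 classes, for example from 281 and 287 to 654 and 613 CPM in basophil and mast cell progenitor-like cells (log2 change 1.17 ± 0.07) and from 74.5 and 78.3 to 168 and 150 CPM in erythroid progenitor-like cells (log2 change 1.07 ± 0.05). Sdf2l1, a protein of the endoplasmic reticulum, was called higher in 6 classes, among them the S100a9-led cluster, from 213 and 227 to 389 and 387 CPM (log2 change 0.76), and Hspa5, the chaperone BiP, in 3, from 573 and 572 to 964 and 996 CPM in that cluster (log2 change 0.70). Hyou1 and Creld2 were called higher in 4 classes each and Fkbp11 in 5, among them GMP-like cells, which it helps to define. Vldlr, a lipoprotein receptor, was called higher in 5 of the 8 classes where it was tested.

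Among genes that fell in many classes, Angpt1 was called lower in 8 of 12. It went from 1992 and 2279 to 1286 and 1336 CPM in HSC-like cells (log2 change -0.75 ± 0.06), from 620 and 639 to 281 and 294 CPM in Flt3+ MPP-like cells (log2 change -1.16 ± 0.08) and from 346 and 338 to 122 and 116 CPM in lymphoid-primed progenitor-like cells (log2 change -1.54 ± 0.15). The vehicle libraries were lower than the WT libraries in each of these. Jun, a component of the AP-1 factor, was called lower in 6 classes, Txnip, a thioredoxin-binding protein known to be high in quiescent stem cells, in 5, and Fhit, a nucleotide hydrolase, in 8.

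Gm47283, a gene model, was the 1 gene called lower in all 12 classes, with log2 changes between -1.80 and -1.19. Over all cells it was at 184 and 168 CPM in WT and 59.7 and 59.8 CPM in vehicle. The 2 libraries of IACS-70654-treated tumor-bearing mice were at 51.3 and 53.9 CPM, so both tumor-bearing groups lay below WT.

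When the clustering left out the called genes, 7 of the 12 class names came up again, matched by name only. The new Flt3+ MPP-like class was larger, 16.4% and 16.8% of WT cells, and took in clusters led by Gcnt2 and by Dntt. In those 7, Ifitm1 was called higher in 5 with either clustering, Tex14 in 6 with either, Angpt1 lower in 4 with either, Jun lower in 4 with either and Gm47283 lower in 7 with either. Pim1 went from 4 to 3 and Sdf2l1 from 3 to 2. Leaving out 1 library changed some of these counts by more than 1.5 times: in the same 7 classes Pim1 was called in 2 without WT replicate 1, WT replicate 2 or vehicle replicate 1, Sdf2l1 in 1 without WT replicate 2, Fkbp11, called in 2 with all libraries, in none without either WT replicate and in 1 without vehicle replicate 1, Vldlr, called in 3, in 1 without WT replicate 1 or vehicle replicate 2, Clnk, called in 4, in 2 without WT replicate 1 or vehicle replicate 1 and in 1 without WT replicate 2, Wfdc17, called in 4, in 2 without WT replicate 2 or vehicle replicate 1, and Fhit, lower in 4 with all libraries, in 1 without WT replicate 1 and in 2 without either vehicle replicate. With DESeq2 fewer calls were made in these 7 classes, and it gave no adjusted p in some of them. Clnk was called in none (no adjusted p in 5 of 6), Fkbp11 in none (4 of 7), Vldlr in 1 (5 of 6), Wfdc17 in 1 (2 of 5), Fhit in 1 (2 of 7) and Pim1 in 2 (1 of 7).

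**Figure D4:**
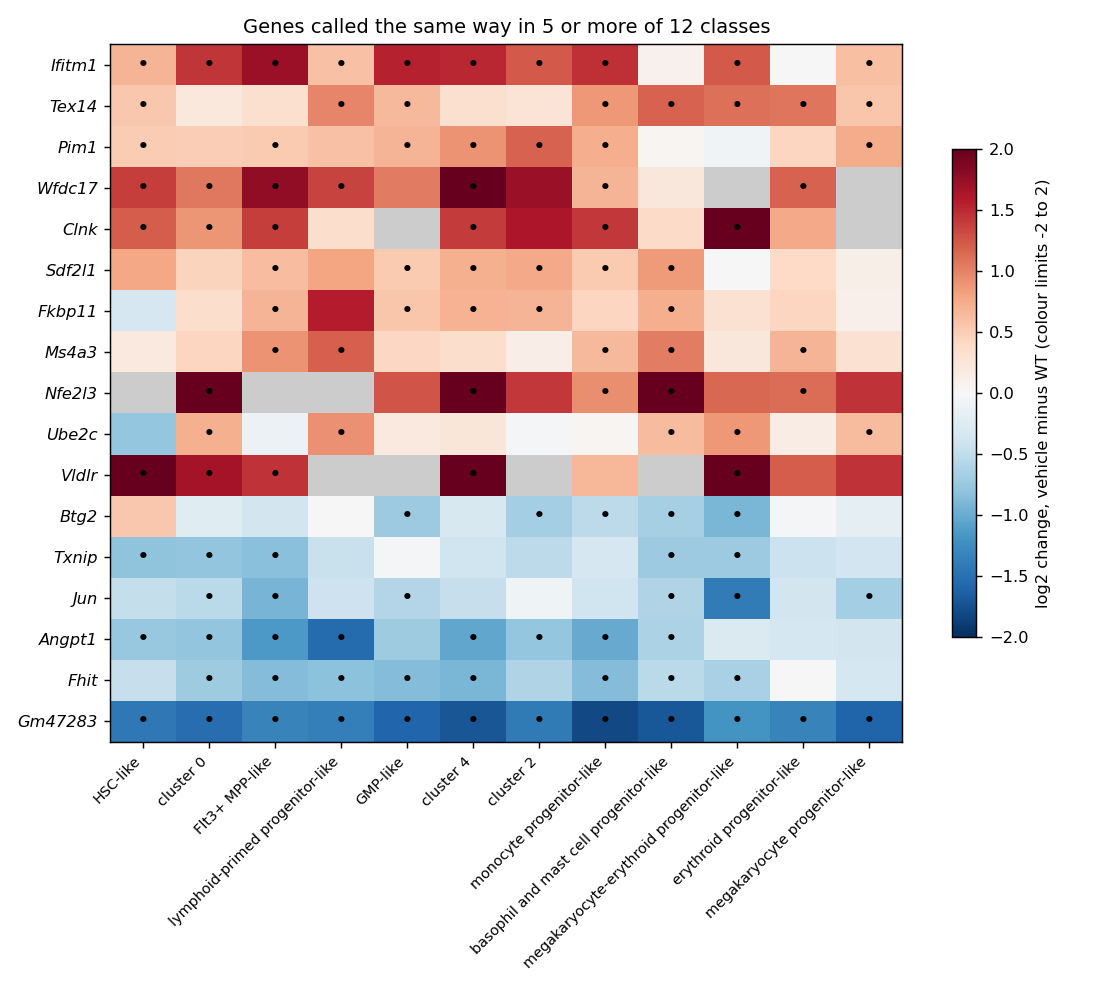
Log2 change, vehicle minus WT, of 17 genes called the same way in 5 or more of the 12 classes, with color from -2 to 2, a dot where the gene was called and grey where it was not tested. Ifitm1 is called in 10 columns, all but basophil and mast cell progenitor-like and erythroid progenitor-like cells, and Gm47283 in all 12.

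In HSC-like cells 37 of 8150 genes were called (0.454%), 19 higher and 18 lower, from 118 to 267 cells per library. Vldlr went from 24.7 and 33.5 to 128 and 114 CPM (log2 change 2.05 ± 0.24, adjusted p = 7.3e-14). Junb, a partner of Jun in AP-1, rose from 206 and 229 to 400 and 374 CPM (log2 change 0.80 ± 0.12) and Ier3 from 164 and 168 to 296 and 241 CPM (log2 change 0.68), while Fos fell from 421 and 398 to 287 and 216 CPM (log2 change -0.70 ± 0.11). The immediate early list had 2 higher and 3 lower of 17 tested, with a median of 0.07. Stem cell regulators gave 3 lower and none higher of 16, among them Angpt1 and Txnip, from 302 and 331 to 206 and 152 CPM (log2 change -0.80 ± 0.13). Car2, carbonic anhydrase 2, went from 505 and 602 to 319 and 245 CPM (log2 change -0.96 ± 0.10).

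In Flt3+ MPP-like cells 21 genes were called higher and 21 lower (0.213% each). Ms4a3, a membrane protein of granulocyte-monocyte committed cells, went from 129 and 123 to 242 and 236 CPM (log2 change 0.91 ± 0.09, adjusted p = 3.7e-11). In MEP-like cells, which should lack it, Ms4a3 was at 64.2 and 66.6 CPM in WT and 77.3 and 82.0 CPM in vehicle. Ifitm3 went from 432 and 446 to 686 and 686 CPM (log2 change 0.63 ± 0.06). Jun fell from 530 and 530 to 291 and 271 CPM (log2 change -0.93 ± 0.07), and Cpa3, a mast cell carboxypeptidase, from 142 and 151 to 80.0 and 52.4 CPM (log2 change -1.09 ± 0.13). Prtn3 was at 1898 and 1842 CPM in WT and 2277 and 2347 CPM in vehicle (log2 change 0.28), with no overlap of the groups but under the size set for a call. Of the neutrophil differentiation signature, 46 genes were tested here, 3 were called higher, 1 lower, and the median was -0.05. Over the 12 classes 1 to 5 of its genes were called higher and at most 1 lower, where 0.143% to 0.852% of all genes were called higher and 0.0947% to 0.569% lower.

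Lymphoid-primed progenitor-like cells had 13 genes called higher (0.154%) and 8 lower (0.0947%). Ms4a3 was at 50.7 and 52.1 CPM in WT and 127 and 108 CPM in vehicle (log2 change 1.19 ± 0.22), a call lost without vehicle replicate 1 (log2 change 1.04), and Prtn3 at 602 and 688 against 902 and 1077 CPM (log2 change 0.57). With Ctsg they were the 3 genes of the azurophil granule list called higher there, of 12 tested. The WT levels of Ms4a3 were no higher than in MEP-like cells, and Prtn3 was at 411 and 385 CPM in WT and 368 and 395 CPM in vehicle in MEP-like cells. Ms4a3 and Prtn3 also rose over all cells of the vehicle libraries, and the part of free RNA in the lymphoid-primed values was not tested.

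In GMP-like cells 31 of 9803 genes were called higher (0.316%) and 20 lower (0.52% in all). None of the 12 azurophil granule genes passed the call. Prtn3, which leads this class, was at 5806 and 6174 CPM in WT and 8220 and 8224 CPM in vehicle (log2 change 0.44). Of 15 early neutrophil genes tested, 3 were called higher. They were Wfdc21, from 2.92 and 8.35 to 21.2 and 13.7 CPM (log2 change 1.87 ± 0.37), Hp, haptoglobin, from 196 and 171 to 270 and 274 CPM (log2 change 0.52), and S100a8, from 25.7 and 23.2 to 63.7 and 36.7 CPM (log2 change 1.14 ± 0.19). The WT levels of Wfdc21 were low and far apart, so the size of its change is poorly known. The WT level of S100a8 in CPM was close to that of MEP-like cells, 24.8 and 28.8 CPM. An S100a8 UMI was found in 24% and 22.8% of WT GMP-like cells and in 12.9% and 15.5% of WT MEP-like cells. The part of free RNA in these values was not tested. The call of S100a8 was lost without vehicle replicate 1 (log2 change 0.55) and with DESeq2 (adjusted p = 0.060). Nedd4, a ubiquitin ligase, fell from 122 and 106 to 67.5 and 82.1 CPM (log2 change -0.71 ± 0.12) and Ccnd2, cyclin D2, from 95.1 and 90.9 to 59.9 and 67.8 CPM (log2 change -0.61 ± 0.13). The calls of Nedd4 and Ccnd2 were lost without WT replicate 1 (log2 change -0.58 and -0.57) and without vehicle replicate 1 (-0.52 and -0.48).

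In the cluster led by S100a9, S100a8 and Wfdc21, 53 of 10293 genes were called higher and 35 lower (0.855% in all). Its leading genes are no result here. Besides Pim1, Sdf2l1 and Hspa5, Dmkn, a secreted dermokine, went from 54.2 and 43.4 to 104 and 111 CPM (log2 change 1.02 ± 0.13). Scaling to library totals in place of TMM gave 96 higher and 26 lower.

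Monocyte progenitor-like cells had 102 genes called higher and 51 lower. Gda, guanine deaminase, went from 35.3 and 34.5 to 67.0 and 72.3 CPM (log2 change 0.95 ± 0.08), Ctsc, the cathepsin that activates granule proteases, from 53.7 and 52.7 to 93.7 and 90.3 CPM (log2 change 0.77 ± 0.07), and Ms4a3 from 283 and 284 to 454 and 458 CPM (log2 change 0.66). Ccnd2 fell here too, from 96.4 and 92.7 to 59.7 and 67.6 CPM (log2 change -0.63 ± 0.07). Of the 2 clusters in this class, the larger held 61.8% and 62.8% of its WT cells and 75.3% and 74.2% of its vehicle cells.

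In basophil and mast cell progenitor-like cells 73 genes were called higher and 56 lower. Of the 12 azurophil granule genes, 4 were called higher, where 0.741% of all genes were, with Elane from 278 and 190 to 426 and 435 CPM (log2 change 0.86 ± 0.08) and Ms4a3 from 167 and 144 to 312 and 325 CPM (log2 change 1.03 ± 0.09). Klf6, a Kruppel-like factor, fell from 132 and 125 to 77.8 and 56.6 CPM (log2 change -0.85 ± 0.11). The class joins 2 clusters, and the one led by Mcpt8 and Prss34 held 60.8% and 59.5% of it in WT and 76.4% and 71.6% in vehicle, so the genes leading those clusters are not given as changes within the class.

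MEP-like cells, 255 and 232 in WT but 143 and 64 in vehicle, had 60 of 9695 genes called higher (0.619%) and 35 lower (0.361%), 0.98% in all. Of 17 immediate early genes, 8 were called lower and none higher, with a median log2 change of -0.92. Jun went from 962 and 871 to 360 and 358 CPM (log2 change -1.40 ± 0.08, adjusted p = 2e-34), Fos from 153 and 161 to 55.7 and 59.6 CPM (log2 change -1.51 ± 0.17) and Ier2 from 335 and 394 to 190 and 147 CPM (log2 change -1.09 ± 0.11). In this class as clustered without the called genes, 6 of 15 were called lower, with a median of -0.79.

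Of 53 G2 and M phase genes in the same cells, 19 were called higher and none lower, with a median of 0.61 and a summed level of 6919 and 6440 CPM in WT against 10510 and 9353 CPM in vehicle. Mki67, the proliferation antigen Ki-67, went from 308 and 274 to 521 and 514 CPM (log2 change 0.79 ± 0.09) and Top2a, topoisomerase II alpha, from 318 and 329 to 597 and 482 CPM (log2 change 0.74 ± 0.08). This did not hold up under the other clustering, in which none of the 53 genes was called in either direction, the median was 0.27 and the log2 change of Mki67 was 0.39. Leaving out vehicle replicate 1 left 5 genes called higher and leaving out WT replicate 2 left 12. DESeq2 called 11 and gave no adjusted p for 22 of the 53. In cluster 0, where 0.464% of all genes were called higher and 0.246% lower, 12 of 54 G2 and M phase genes were called higher and none lower (median 0.43), 8 without WT replicate 1, 3 without vehicle replicate 1 and 6 with DESeq2, which gave no adjusted p for 21 of them.

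**Figure D5:**
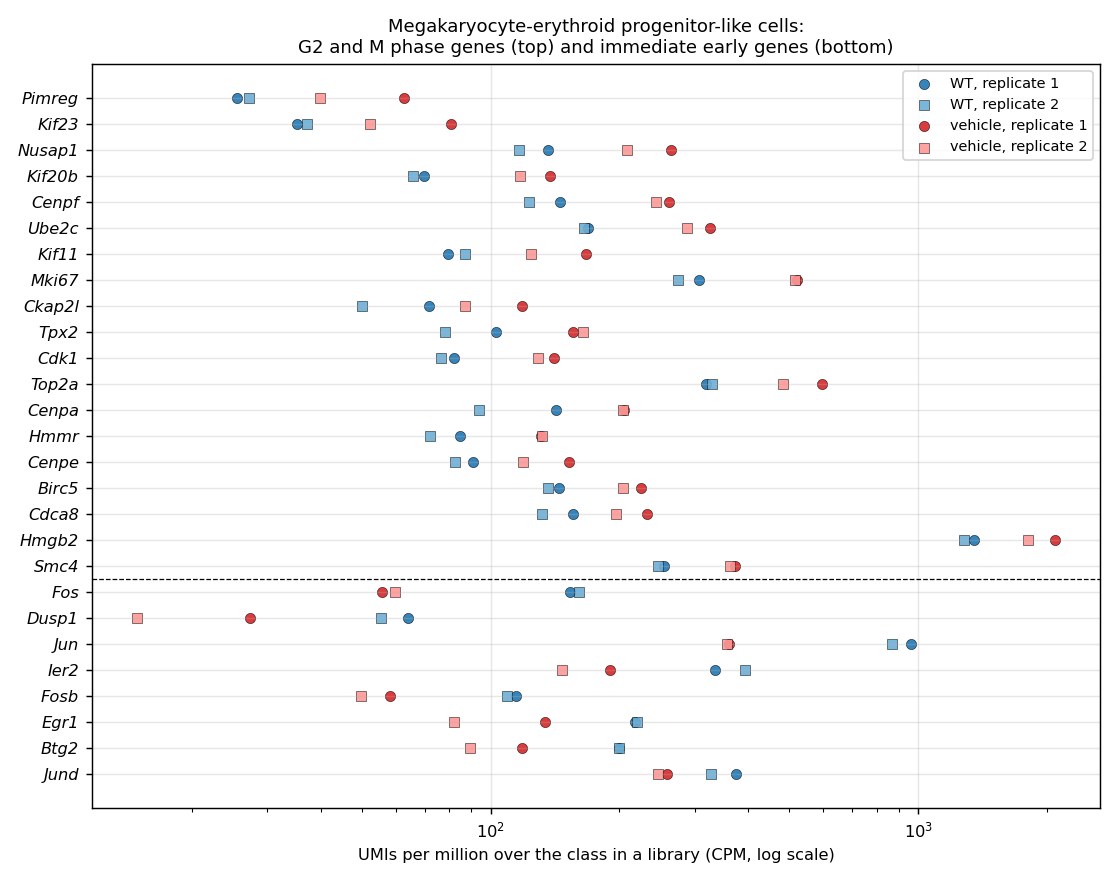
Summed UMIs in CPM (log axis) in megakaryocyte-erythroid progenitor-like cells of the 19 G2 and M phase genes called higher (above the dashed line) and the 8 immediate early genes called lower (below it), with one point per library. Jun lies at 962 and 871 CPM in WT and 360 and 358 CPM in vehicle, and Mki67 at 308 and 274 against 521 and 514 CPM.

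Erythroid progenitor-like cells had 54 of 12055 genes called higher (0.448%) and 16 lower (0.581% in all). None of the 23 erythroid genes was lower. Of the 4 called higher, 3 were globins, of which Hbb-bs and Hba-a1 also lead one of the clusters of the class, and the other was Slc25a37, the mitochondrial iron importer mitoferrin, from 19.5 and 19.7 to 33.9 and 31.8 CPM (log2 change 0.74 ± 0.09). Mgst3, a glutathione transferase, went from 69.8 and 64.7 to 116 and 113 CPM (log2 change 0.75 ± 0.05). Neutrophil genes were called higher as well, but in 1 library: S100a8 was at 15.6 and 17.9 CPM in WT, 71.8 CPM in vehicle replicate 1 and 15.7 CPM in vehicle replicate 2 (log2 change 1.70), and its log2 change without vehicle replicate 1 was -0.08. Of the 12 azurophil granule genes, 5 were called higher with both vehicle libraries and none without vehicle replicate 1. The part of free RNA or of doublets in these counts was not tested.

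Megakaryocyte progenitor-like cells had 14 genes called higher and 13 lower of 9796 (0.276%). Jun fell from 429 and 464 to 284 and 280 CPM (log2 change -0.69 ± 0.08), and Rgs1, a regulator of G protein signaling, from 126 and 106 to 65.9 and 58.8 CPM (log2 change -0.90 ± 0.13), a call lost without WT replicate 1 (log2 change -0.76). Of 54 G2 and M phase genes, 4 were called higher, Ube2c, Cdca8, Cenpf and Tpx2. Of all 14 higher calls in this class, DESeq2 made 1, gave no adjusted p for 12 and did not make 1.

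Of genes the study names in these cells, Malat1, a nuclear noncoding RNA, was at 5370 and 5542 CPM in WT and 4831 and 4996 CPM in vehicle over all cells (log2 change -0.17 ± 0.01, adjusted p = 5.8e-09), below the size set for a call, and was called in none of the 12 classes, where its log2 change ran from -0.34 to 0.08. Txnip was at 84.5 and 87.5 CPM in WT and 48.5 and 47.2 CPM in vehicle over all cells (log2 change -0.86 ± 0.04) and was called lower in 5 classes. Prtn3 was called higher in 3 classes, basophil and mast cell progenitor-like, lymphoid-primed progenitor-like and, with vehicle replicate 1, erythroid progenitor-like cells. Over all 12 its log2 change ran from -0.12 to 0.68.

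Whether the change from WT to vehicle differed between GMP-like and Flt3+ MPP-like cells was tested by an interaction term over both classes. Of 9678 genes, 1 was called (0.0103%): Dach1, a transcriptional cofactor, was at 505 and 542 CPM in WT and 331 and 279 CPM in vehicle in Flt3+ MPP-like cells, and at 51.3 and 51.0 against 60.4 and 64.7 CPM in GMP-like cells, a difference of 0.99 between the log2 changes (adjusted p = 0.00095). It was no longer called without vehicle replicate 1 (1.22) or vehicle replicate 2 (0.89). Ms4a3 (difference -0.50, adjusted p = 0.022) and Prtn3 (0.15, adjusted p = 0.43) were not called in this test.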

How the data were processed

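Single cells were tagged with CellPlex oligonucleotides and sequenced as 10x Genomics 3′ libraries. The authors deposited 1 matrix of UMI counts per gene and barcode for each library, made with cellranger 7.2.0 per the file headers. The submitters' processing notes also name Cell Ranger, Seurat and the build mm10. No deposited column was left unmapped.

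Cells with 201 to 5999 genes and at most 10% mitochondrial UMIs were kept. Clustering (leidenalg 0.10.2, scanpy 1.11.5) used 2000 variable genes, 30 principal components, 20 neighbours and a resolution of 1. Scrublet marked under 0.5% of the cells as doublets, which was taken as a failed call, so none were removed. UMI counts were summed per library and class and tested with edgeR 4.0.16 (quasi-likelihood, TMM, low counts filtered by filterByExpr) in R 4.3.3, with Benjamini-Hochberg adjustment over all genes tested, and the 6 Lin- c-Kit+ libraries shared 1 estimate of the spread. A class was tested with at least 50 cells in each library. Cell counts were tested by the same method with library totals as the offset, for classes averaging at least 20 cells. DESeq2 1.42.0, limma 3.58.1, other scalings, filters, cell sets and clusterings, and each library left out, were alternatives. Scripts were tested on simulated data.

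Genes named are the 12 largest called changes each way over all cells with a mean of at least 20 CPM and groups that do not overlap, leaving out gene models and immunoglobulin and T cell receptor genes, the 4 largest each way per class with at least 50 CPM, members of the gene lists, marker and leading genes, and Prtn3, Ms4a3, Malat1 and Txnip. Others were chosen after their values were seen. The comparison, the gene lists and the markers were chosen with earlier results of these data known. Precision is limited by 2 libraries per group. Results for some genes are not reported here.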

Additional observations from a re-analysis of the deposited data

Results flagged for a closer look

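The change of Dach1, a transcriptional cofactor, differed between 2 progenitor classes by a test of the difference itself: its log2 change from WT to vehicle was 0.99 higher in GMP-like than in Flt3+ MPP-like cells (interaction term of edgeR's quasi-likelihood test, adjusted p = 0.00095). In Flt3+ MPP-like cells the log2 change was -0.77, and in GMP-like cells, where Dach1 was about an order of magnitude lower, it was 0.25. The difference was no longer called without vehicle replicate 1 (1.22) or vehicle replicate 2 (0.89). No group had enough libraries to look for single outlying libraries.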

How the results depend on the processing

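Of the comparisons of shares and of gene counts, 326 results under alternatives kept their direction and side of the threshold, or stayed within 1.5 times, and 35 did not. A share that changed direction was counted among the 326 where neither result passed the threshold. Classes of other clusterings were matched by name only. Genes called over all cells, 1009 higher and 528 lower, came to 122 and 33 at equal makeup, 3314 and 3118 at an adjusted p under 0.05 with no minimum change, and 814 to 927 and 426 to 552 with 1 library left out. Summed over the 12 classes, 534 higher and 333 lower calls came to 175 and 92 with DESeq2, 2043 and 1920 at an adjusted p under 0.05 with no minimum change, and 300 to 543 and 183 to 288 with 1 library left out. The fewest came without WT replicate 1.

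Scaling cell counts by TMM gave log2 changes of -0.69 for Flt3+ MPP-like, -0.022 for GMP-like, -1.002 for T, NK or innate lymphoid-like, 0.10 for basophil and mast cell progenitor-like and 0.30 for plasma cell-like cells, and 0.30 for the basophil and mast cell lineage tested among lineages. Flt3+ MPP-like cells differed by -0.33 with only the 4 WT and vehicle libraries, -0.22 at resolution 0.5 and -0.59 to 0.0006 with 1 library left out. GMP-like cells gave 0.34 with every barcode (adjusted p = 0.050) and 0.19 to 0.54 with 1 library left out. HSC-like cells gave 0.29 with the named stem, myeloid and erythroid classes as denominator, which leaves out the unnamed clusters. With 1 library left out, T, NK or innate lymphoid-like cells gave -1.01 to -0.065 and plasma cell-like cells 0.51 to 0.81. The lymphoid lineage, -0.20 as first clustered, gave 1.47 at resolution 0.5, 1.5 without the called genes and -0.48 with cells thinned to 3000 UMIs. At resolution 0.5 and without the called genes the cluster led by Dntt was named Flt3+ MPP-like. B-lineage-like cells alone then made up the lineage. The interaction test called 0 to 4 genes with 1 library left out. Apart from this change of name, the cause of these shifts was not tested.

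Whether the replicate numbers pair the samples cannot be told from the single difference between replicates in each group. Deviations from the group means correlated at 0.07 between WT and vehicle and at -0.45 between vehicle and IACS-70654 libraries over 6248 genes. With the replicate number as a block, 981 genes were called higher and 508 lower over all cells, 514 and 318 over the classes, and the GMP-like share differed by 0.33 (adjusted p = 0.092), no longer called. Library totals in place of TMM, and clusterings without the called genes for single genes, were chosen after seeing the data. Among genes named in a class, 89 results under alternatives lost their call and 888 did not. The 888 include results for which DESeq2 gave no adjusted p, which are not calls. Of the 534 higher and 333 lower calls, DESeq2 made 169 and 91, gave no adjusted p for 183 and 121, and did not make 182 and 121. Class sums came from as few as 53 cells in a library (lymphoid-primed progenitor-like, vehicle replicate 2), and detection against cell number was not tested.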
